A study of Homo sapiens with 17 samples.

Results

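The leukocyte immunoglobulin-like receptors (LILRs) are surface receptors of myeloid and other immune cells, encoded together with LAIR1 in the leukocyte receptor complex on chromosome 19. The genes described here were chosen by name as LILRB1, LILRB2, LILRB3, LILRB4, LILRA1, LILRA2, LILRA5, LILRA6 and LAIR1, 9 of the 58278 gene identifiers in each library. All 9 passed the filter on low counts in both experiments.

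LILRB proteins and LAIR1 carry tyrosine motifs in their cytoplasmic tails, which recruit phosphatases such as SHP-1 and dampen activating signals. Most LILRA proteins have short tails and signal through FcR gamma, the adaptor encoded by FCER1G. Ligands include HLA class I molecules for LILRB1 and LILRB2, apolipoprotein E for LILRB4 and collagens for LAIR1, and LILRB4 is known as a surface marker of monocytic acute myeloid leukaemia (AML).

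RNA was sequenced from MOLM13, an established human AML line with the MLL-AF9 fusion, in 17 libraries of 2 experiments. The first held 3 libraries labelled as CRISPR knockout of HOXA9 (HOXA9_KO), 3 of SAFB (SAFB_KO) and 3 with a non-targeting guide (NT). The second held 4 libraries of MEIS1 knockout (MEIS1_KO) and 4 with a non-targeting guide of that experiment (NT_MEIS1ex). All groups share the MOLM13 background, and no other treatment is labelled. MLL-fusion leukaemias express the homeobox factors HOXA9 and MEIS1, and SAFB belongs to the nuclear matrix. The title names a repressive complex of HOXA9 and SAFB, and the comparisons ask whether receptor RNA differed in the knockout of either gene. The labels do not say whether cells were clones or pools, or whether libraries came from separate cultures, so p-values measure the spread between libraries, which may be technical.

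Between 23264176 and 67842104 reads per library were assigned to genes. RNA of each targeted gene was lower in its knockout but still present, and the counts used here do not show whether its protein was lost. HOXA9 averaged 21.4 ± 0.446 CPM in HOXA9_KO and 40.8 ± 0.968 CPM in NT (read counts scaled to library size by the trimmed mean of M-values, TMM; SD, n = 3 each). SAFB averaged 20.6 ± 1.42 CPM in SAFB_KO and 38.3 ± 4.07 CPM in NT (SD, n = 3 each). MEIS1 averaged 11.1 ± 1.10 CPM in MEIS1_KO and 32.4 ± 0.822 CPM in NT_MEIS1ex (SD, n = 4 each), and it was also lower in HOXA9_KO (16.8 ± 0.815 CPM) than in NT (49.1 ± 1.06 CPM). The first experiment's groups also differed outside the receptors. Mitochondrial ribosomal RNA took 31.9% to 35.5% of assigned reads in HOXA9_KO, 24.9% to 27.0% in SAFB_KO and 22.5% to 28.4% in NT. Reads outside annotated genes came to 8.65% to 9.27% in HOXA9_KO, 10.6% to 12.7% in SAFB_KO and 16.4% to 18.1% in NT, with no overlap. The second experiment's counts differ from these, with mitochondrial ribosomal RNA at no more than 0.00941% in any library and reads outside genes at 7.58% to 9.15% in MEIS1_KO and 6.07% to 8.47% in NT_MEIS1ex. IL3RA, a cytokine receptor gene, is listed at 0 in all 9 libraries of the first experiment and averaged 27.8 CPM in MEIS1_KO and 30.2 CPM in NT_MEIS1ex. A list of 8 interferon-response genes summed to 68.7 ± 5.95 CPM in HOXA9_KO, 128 ± 8.70 CPM in SAFB_KO and 795 ± 144 CPM in NT. In the second experiment it summed to 178 ± 43.3 CPM in MEIS1_KO and 125 ± 23.5 CPM in NT_MEIS1ex (SD, n = 4 each). NT, the control of the first experiment, thus stood above every other group, the other control among them. The part of these differences in the receptor results was not tested.

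Promoters of 300 bases (250 before and 50 after an annotated start; RefSeq, GRCh38.p14) were at hand for 8 of the 9 receptors, in 15 entries, with none for LILRA6. The first 3 are shown because their sequences are related, while LILRA5 changed far more in HOXA9_KO (2.74 on the log2 scale) than LILRA1 (0.49) and LILRB1 (0.53), which changed by nearly the same amount. They are LILRA5 (chr19:54313117-54313416, minus strand), LILRA1 (chr19:54593382-54593681, plus strand) and LILRB1 (chr19:54630234-54630533, plus strand). Capitals mark letters searched on both strands for C/EBP factors (TTGCNNA) and interferon-response factors (TTTCNNT).
LILRA5: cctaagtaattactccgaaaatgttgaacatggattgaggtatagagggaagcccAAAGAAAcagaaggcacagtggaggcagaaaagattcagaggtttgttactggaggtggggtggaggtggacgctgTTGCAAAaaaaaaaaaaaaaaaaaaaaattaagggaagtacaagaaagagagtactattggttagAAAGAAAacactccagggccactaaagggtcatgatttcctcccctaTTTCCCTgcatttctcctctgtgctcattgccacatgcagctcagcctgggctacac
LILRA1: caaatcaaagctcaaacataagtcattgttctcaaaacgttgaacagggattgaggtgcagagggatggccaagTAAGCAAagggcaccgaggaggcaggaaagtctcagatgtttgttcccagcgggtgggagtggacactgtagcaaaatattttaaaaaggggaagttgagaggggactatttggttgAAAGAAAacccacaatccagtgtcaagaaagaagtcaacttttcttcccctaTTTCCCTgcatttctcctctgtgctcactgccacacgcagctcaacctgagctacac
LILRB1: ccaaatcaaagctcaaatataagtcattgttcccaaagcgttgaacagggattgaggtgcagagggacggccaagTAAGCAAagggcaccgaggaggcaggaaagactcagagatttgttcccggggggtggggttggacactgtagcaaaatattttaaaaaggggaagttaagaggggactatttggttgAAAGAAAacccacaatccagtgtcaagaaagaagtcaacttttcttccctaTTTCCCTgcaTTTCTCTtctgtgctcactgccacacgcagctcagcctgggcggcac
In local alignments LILRA1 and LILRB1 were identical at 282 of 300 columns (94.0%), and LILRA5 and LILRB1 at 222 of 303 (73.3%). All 3 hold interferon-response letters at position -7 from the start, and each holds C/EBP letters, at -119 in LILRA5, -176 in LILRA1 and -175 in LILRB1. This holds for the entries shown: other entries of LILRA1 (chr19:54593947-54594246) and LILRB1 (chr19:54616879-54617178) hold no C/EBP letters. An entry of LILRB2 (chr19:54281061-54281360) was identical to the LILRA1 entry shown at 268 of 292 columns (91.8%). With the LILRB1 entry shown it was identical at 273 of 300 (91.0%). This LILRB2 entry holds no C/EBP letters, and its interferon-response letters are at -59 and not at -7. LILRB2 changed by 0.35 in HOXA9_KO and was not called.

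The next pair is shown because both genes were among those that rose most and their starts are related too. They are LILRB3 (chr19:54222958-54223257, minus strand) and LILRA2 (chr19:54573581-54573880, plus strand). Here capitals also mark letters of ETS factors such as PU.1 (AGGAAGT) and of MEIS1 (TGACAG).
LILRB3: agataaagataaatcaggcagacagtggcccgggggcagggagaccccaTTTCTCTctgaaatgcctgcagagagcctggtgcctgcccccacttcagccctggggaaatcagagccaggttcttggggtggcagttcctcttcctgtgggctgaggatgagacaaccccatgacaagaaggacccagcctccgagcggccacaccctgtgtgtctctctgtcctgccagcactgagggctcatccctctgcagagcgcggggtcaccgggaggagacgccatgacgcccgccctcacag
LILRA2: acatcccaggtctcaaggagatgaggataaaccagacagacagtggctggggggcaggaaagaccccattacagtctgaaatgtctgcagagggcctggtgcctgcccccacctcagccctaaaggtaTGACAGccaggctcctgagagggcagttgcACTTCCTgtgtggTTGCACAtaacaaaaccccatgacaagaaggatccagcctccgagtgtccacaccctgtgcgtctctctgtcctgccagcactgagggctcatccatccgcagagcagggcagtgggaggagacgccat
These were identical at 236 of 285 aligned columns (82.8%). Starts of receptors that rose less in HOXA9_KO were about as close to them. LILRB3 and LILRB4 (0.73 on the log2 scale) were identical at 227 of 276 columns (82.25%). LILRA2 and the entry of LILRA1 (0.49) at chr19:54593947-54594246 were identical at 248 of 303 (81.85%). LILRA2 holds ETS letters at -92, C/EBP letters at -79 and MEIS1 letters at -122, and LILRB3 holds interferon-response letters at -201 and none of the others. Of 34943 RefSeq promoters of this length, 8.23% hold the ETS letters, 33.15% the C/EBP letters, 15.8% the MEIS1 letters and 48.9% the interferon-response letters. Letters of a HOXA9 motif (TTTATNA) are in 12.2% of all promoters and in 0 of the 15 receptor entries. Of the same 15 entries, 3 hold the ETS letters, 6 the C/EBP letters, 2 the MEIS1 letters and 11 the interferon-response letters. Some entries of a gene overlap, so the 15 are not separate promoters, and these counts were not tested. A match describes letters and not a bound site, absence says only that the letters are not in this window, and the counts do not show which start was used.

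In HOXA9_KO, RNA of most of these receptors was higher, and 4 of them stood apart by the size of the rise. LILRA5, LILRB3, LILRA6 and LILRA2 were between 3.06 and 6.68 fold higher in HOXA9_KO than in NT, while LILRB4, LILRB1, LILRA1 and LAIR1 were between 1.28 and 1.66 fold higher. In all, 8 of 9 receptors were called higher and 0 lower, where 27.6% of 18876 tested genes were called higher and 29.9% lower (edgeR's quasi-likelihood test, adjusted p under 0.05). At an unadjusted p under 0.05 the counts were also 8 and 0, and DESeq2 called 8 and 0. The median log2 fold change was 0.73 over the receptors and -0.07 over all tested genes. For the 8 called receptors every HOXA9_KO library lay above every NT library, as for 29.1% of all tested genes, while 33.5% of genes lay below NT in this way. In bulk RNA, fewer or more cells with a receptor cannot be told apart from less or more of its RNA per cell.

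**Figure D1:**
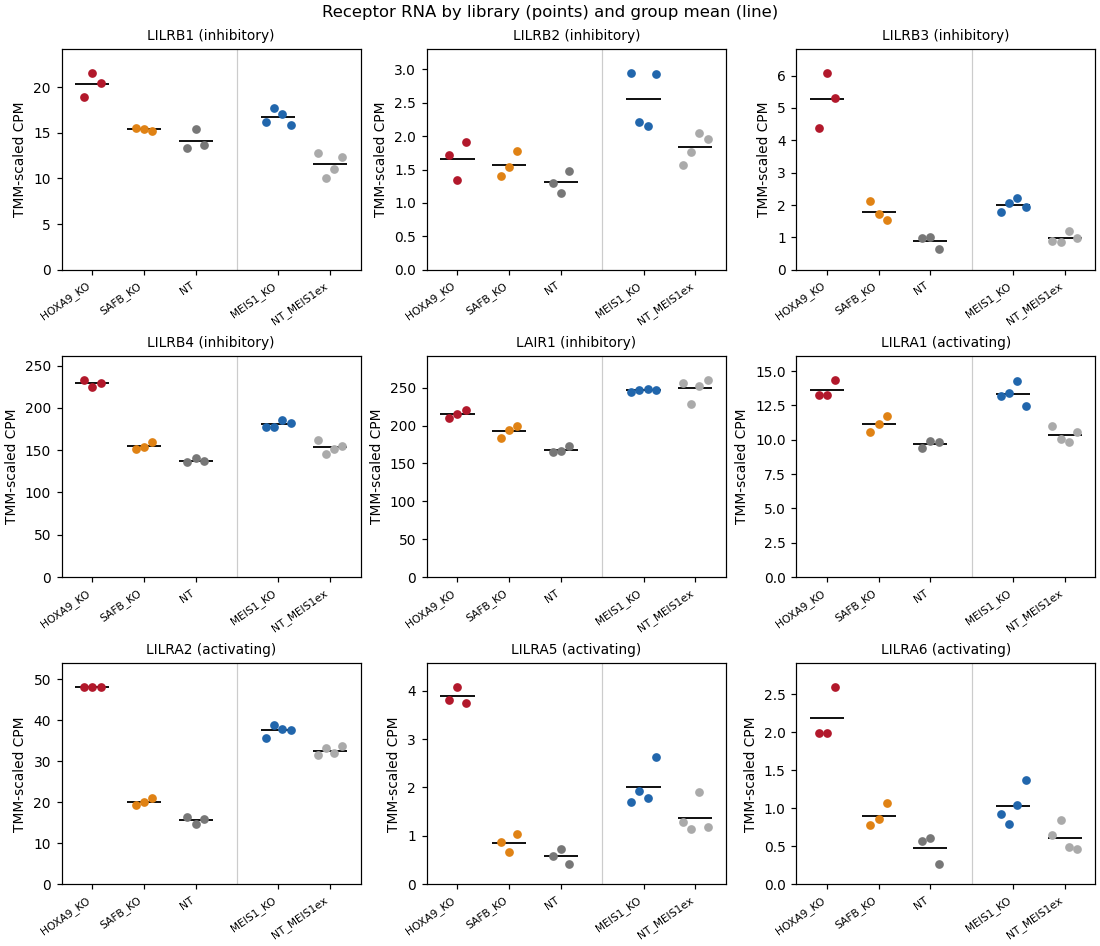
TMM-scaled CPM of each receptor (1 panel each) in every library (points), with the group mean as a line, for HOXA9_KO, SAFB_KO and NT and then MEIS1_KO and NT_MEIS1ex. HOXA9_KO points lie above all NT points in every panel but that of LILRB2, and LAIR1 in MEIS1_KO lies within the range of NT_MEIS1ex.

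Among inhibitory receptors, LILRB3, which is found on monocytes and granulocytes, rose most. It had 4.37, 6.09 and 5.32 CPM in HOXA9_KO, 2.11, 1.71 and 1.53 CPM in SAFB_KO, and 0.973, 1.01 and 0.651 CPM in NT. The 3 groups did not overlap, and SAFB_KO lay between the others. LILRB3 rose by 2.56 ± 0.19 (SE) on the log2 scale in HOXA9_KO (edgeR, adjusted p = 7.49e-17) and by 0.996 ± 0.21 in SAFB_KO (adjusted p = 0.000136). These values rest on 132 to 197 reads per HOXA9_KO library and 30 to 72 per NT library. Of the 150-base stretches in its exons, 3.71% also occur in LILRA6, so reads from these stretches are uncertain between both genes.

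LILRB4 had 233, 225 and 229 CPM in HOXA9_KO, 151, 154 and 160.0 CPM in SAFB_KO, and 136, 141 and 137 CPM in NT. Again the groups were in this order without overlap. It rose by 0.73 ± 0.03 on the log2 scale in HOXA9_KO (edgeR, adjusted p = 6.48e-25) and by 0.17 ± 0.03 in SAFB_KO (adjusted p = 4.76e-05). The SAFB_KO call was lost with nuclear protein-coding counts (0.03, adjusted p = 0.451), library totals (0.03, 0.742) and totals less mitochondrial rRNA (0.04, 0.343). The pseudogene VN1R105P overlaps 12.96% of its exon bases on the same strand.

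LAIR1, the collagen receptor, had 209.6, 215 and 221 CPM in HOXA9_KO, 184, 194 and 199 CPM in SAFB_KO, and 166, 166 and 173 CPM in NT, with no overlap. Its log2 fold change was 0.36 ± 0.03 in HOXA9_KO (edgeR, adjusted p = 4.75e-13) and 0.19 ± 0.03 in SAFB_KO (adjusted p = 6.14e-06), where the call was lost under the same 3 scalings (0.05 to 0.06). With library totals as the only scaling it stood at -0.08 in HOXA9_KO (adjusted p = 0.16).

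LILRB1, a receptor for HLA class I, had 18.9, 21.6 and 20.4 CPM in HOXA9_KO, 15.5, 15.4 and 15.2 CPM in SAFB_KO, and 13.3, 15.4 and 13.6 CPM in NT. HOXA9_KO stood clear of NT and SAFB_KO overlapped it. The rise in HOXA9_KO was 0.53 ± 0.07 on the log2 scale (edgeR, adjusted p = 1.56e-08), and with library totals the call was lost (0.09, adjusted p = 0.349). In SAFB_KO the difference was 0.13 (95% interval -0.02 to 0.27, adjusted p = 0.188). LILRB1-AS1 overlaps 7.09% of its exon bases on the opposite strand, and the sources used here do not give the strand setting of the counting.

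LILRB2, also a receptor for HLA class I, was called in neither knockout of the first experiment. It had 1.72, 1.34 and 1.92 CPM in HOXA9_KO, 1.40, 1.54 and 1.78 CPM in SAFB_KO, and 1.297, 1.14 and 1.48 CPM in NT, and the groups overlapped. The difference was 0.35 on the log2 scale in HOXA9_KO (95% interval -0.09 to 0.79, edgeR, adjusted p = 0.169) and 0.27 in SAFB_KO (95% interval -0.16 to 0.71, adjusted p = 0.352). With 43 to 96 reads per library in HOXA9_KO and NT, a rise as large as that of LILRB4 lies inside the HOXA9_KO interval.

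Among activating receptors, LILRA5, found on monocytes, rose most. It had 3.81, 4.07 and 3.75 CPM in HOXA9_KO, 0.870, 0.664 and 1.05 CPM in SAFB_KO, and 0.581, 0.730 and 0.412 CPM in NT. HOXA9_KO stood far above both other groups, and SAFB_KO overlapped NT. The log2 fold change was 2.74 ± 0.23 in HOXA9_KO (edgeR, adjusted p = 3.63e-15) and 0.55 ± 0.26 in SAFB_KO (adjusted p = 0.101), on 19 to 43 reads per NT library. Without SAFB_KO replicate 2 the SAFB_KO difference was called (0.73, adjusted p = 0.0470). AC245884.11 overlaps 4.83% of its exon bases on the same strand.

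LILRA6, whose extracellular part closely resembles that of LILRB3, had 1.988, 1.989 and 2.59 CPM in HOXA9_KO, 0.777, 0.857 and 1.07 CPM in SAFB_KO, and 0.5676, 0.611 and 0.260 CPM in NT. The groups did not overlap, on 12 to 42 reads per NT library. LILRA6 rose by 2.16 ± 0.27 on the log2 scale in HOXA9_KO (edgeR, adjusted p = 1.38e-09) and by 0.88 ± 0.29 in SAFB_KO (adjusted p = 0.0157). The SAFB_KO call was lost without NT replicate 3 (0.62, adjusted p = 0.112) and without SAFB_KO replicate 3 (0.74, adjusted p = 0.0873).

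LILRA2, which recognises immunoglobulins cut by microbial proteases, had 48.1, 48.1 and 48.0 CPM in HOXA9_KO, 19.4, 19.999 and 21.2 CPM in SAFB_KO, and 16.5, 14.6 and 15.9 CPM in NT. The groups did not overlap, and the HOXA9_KO libraries were nearly equal. It rose by 1.62 ± 0.06 on the log2 scale in HOXA9_KO (edgeR, adjusted p = 7.84e-29) and by 0.36 ± 0.06 in SAFB_KO (adjusted p = 4.54e-06). AC245036.5 overlaps 15.8% of its exon bases on the same strand, so its reads are uncertain there.

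LILRA1 had 13.3, 13.2 and 14.4 CPM in HOXA9_KO, 10.6, 11.1 and 11.7 CPM in SAFB_KO, and 9.39, 9.90 and 9.83 CPM in NT, with no overlap. It rose by 0.49 ± 0.08 on the log2 scale in HOXA9_KO (edgeR, adjusted p = 9.96e-07), a call lost with library totals (0.06, adjusted p = 0.612). The SAFB_KO difference of 0.20 ± 0.08 lay at the threshold (adjusted p = 0.0498) and lost its call under 11 of 18 alternatives, among them leaving out any 1 NT library (adjusted p between 0.0653 and 0.150) or SAFB_KO replicate 2 (0.0935) or 3 (0.196).

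**Figure D2:**
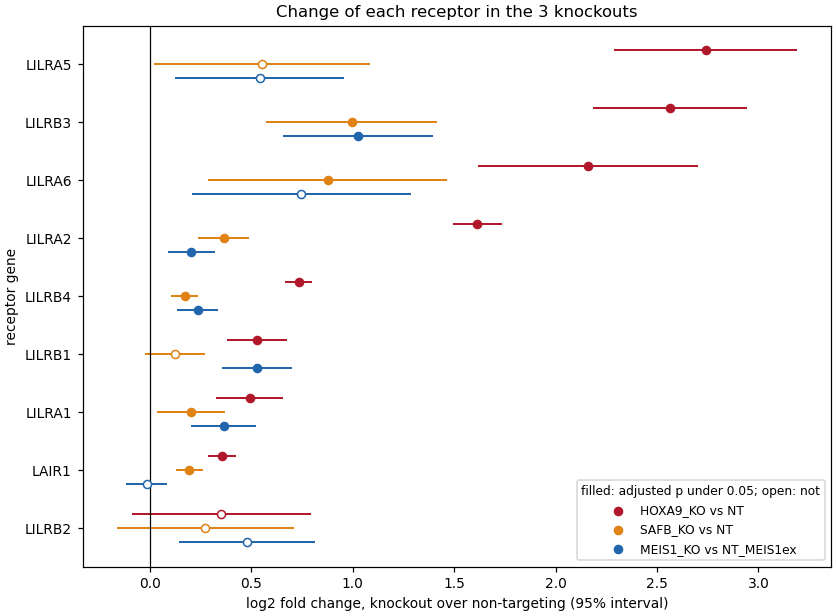
Log2 fold change of each receptor in HOXA9_KO and SAFB_KO over NT and in MEIS1_KO over NT_MEIS1ex, with 95% intervals; filled points have an adjusted p under 0.05 and open points do not. LILRA5, LILRB3, LILRA6 and LILRA2 stand at 1.62 to 2.74 in HOXA9_KO and at 0.20 to 1.03 in both other knockouts.

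How the libraries were scaled moved all genes together. In HOXA9_KO against NT the median of all tested genes was -0.07 with TMM, -0.32 with nuclear protein-coding counts, -0.33 with totals less mitochondrial rRNA and -0.50 with library totals. With these scalings 5207, 2861, 2815 and 1659 genes were called higher and 5640, 9293, 9381 and 11710 lower. Since a scaling moves all genes by nearly the same amount, the distance of a receptor to that median is nearly fixed in advance. It is therefore no check of the rises: LAIR1 stood 0.43 above the median with TMM and 0.42 with library totals, and LILRA5 stood 2.81 above it with both. LILRA5, LILRB3, LILRA6, LILRA2 and LILRB4 kept their calls with library totals, at 2.31, 2.13, 1.73, 1.18 and 0.29.

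**Figure D3:**
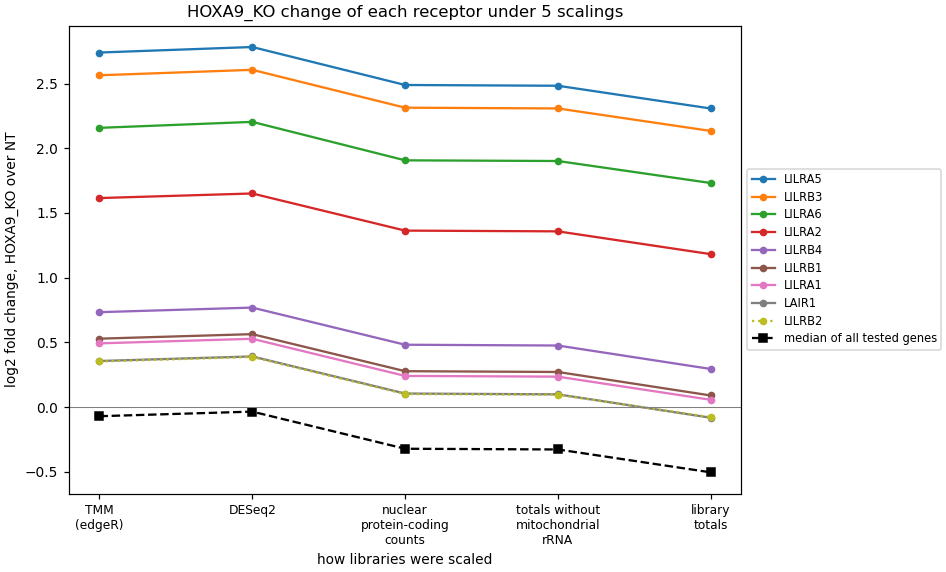
Log2 fold change of each receptor in HOXA9_KO over NT under 5 ways of scaling the libraries, with the median of all tested genes dashed; the lines of LILRB2 and LAIR1 coincide. The receptors move in parallel with the median, as a change of scaling makes all genes do, and the median falls to -0.50 with library totals.

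In SAFB_KO, several of the same receptors were higher, by less. LILRB3, LILRA6, LILRA2, LILRA1, LAIR1 and LILRB4 were called higher in SAFB_KO than in NT, 6 of 9 receptors, and 0 lower, where 20.2% of tested genes were called higher and 15.3% lower (edgeR). At an unadjusted p under 0.05 the counts were 7 and 0, and DESeq2 called 6 and 0. The median was 0.27 over the receptors and -0.02 over all tested genes. In these 6 receptors every SAFB_KO library lay above every NT library, as for 24.1% of all tested genes, while 22.3% lay below NT in this way. With nuclear protein-coding counts, library totals or totals less mitochondrial rRNA, 3 receptors kept their calls, LILRB3, LILRA6 and LILRA2, while LAIR1, LILRB4 and LILRA1 stood between 0.03 and 0.07 and the median of all genes between -0.16 and -0.15.

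HOXA9_KO and SAFB_KO share the NT libraries, so they were also set against each other. RNA of 8 of 9 receptors was higher in HOXA9_KO than in SAFB_KO and of 0 lower, where 20.1% of tested genes were called higher and 20.5% lower (edgeR). The unadjusted counts and those of DESeq2 were 8 and 0 too. For these 8 every HOXA9_KO library lay above every SAFB_KO library, as for 23.7% of tested genes, while 24.6% lay below. The difference was 2.19 on the log2 scale for LILRA5 (adjusted p = 1.38e-11), 1.57 for LILRB3 (3.59e-10), 1.28 for LILRA6 (6.86e-05) and 1.25 for LILRA2 (1.69e-23). LILRB4 differed by 0.56 (adjusted p = 8.97e-20) and LILRB1 by 0.40 (1.33e-05). LILRA1 (0.29, adjusted p = 0.00405) and LAIR1 (0.16, adjusted p = 0.000103) lost their calls with nuclear protein-coding counts, at 0.18 (0.0818) and 0.05 (0.242). With library totals LILRB1 lost its call (0.11, adjusted p = 0.311), LILRA1 stood at -0.0040 (0.978) and LAIR1 was called lower (-0.13, 0.0278). LILRB2 differed by 0.08 (95% interval -0.37 to 0.53).

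In MEIS1_KO, LILRB3, LILRB1, LILRA1, LILRB4 and LILRA2 were higher. These were 5 of 9 receptors, with 0 lower, where 4.97% of 15744 tested genes were called higher in MEIS1_KO than in NT_MEIS1ex and 3.84% lower (edgeR). At an unadjusted p under 0.05 the counts were 8 and 0, and DESeq2 called 5 and 0. The median was 0.48 over the receptors and 0.00 over all tested genes. For the called receptors and LILRB2, 6 in all, every MEIS1_KO library lay above every NT_MEIS1ex library, as for 8.42% of tested genes, while 7.28% lay below.

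LILRB3 had 1.77, 2.07, 2.23 and 1.94 CPM in MEIS1_KO and 0.891, 0.842, 1.19 and 0.994 CPM in NT_MEIS1ex, a rise of 1.03 ± 0.17 on the log2 scale (edgeR, adjusted p = 0.00109). LILRB1 had 16.2, 17.7, 17.05 and 15.9 CPM in MEIS1_KO and 12.8, 10.1, 11.1 and 12.3 CPM in NT_MEIS1ex, a rise of 0.53 ± 0.08 (adjusted p = 0.000533). Neither overlapped its controls. LILRB4 had 178, 178, 186 and 182 CPM in MEIS1_KO and 162, 146, 152 and 156 CPM in NT_MEIS1ex, and rose by 0.23 ± 0.05 (adjusted p = 0.00392).

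LILRA1 had 13.2, 13.4, 14.3 and 12.5 CPM in MEIS1_KO and 10.98, 10.1, 9.87 and 10.6 CPM in NT_MEIS1ex, and rose by 0.36 ± 0.08 on the log2 scale (edgeR, adjusted p = 0.00577). LILRA2 had 35.7, 38.9, 37.9 and 37.6 CPM in MEIS1_KO and 31.5, 33.2, 31.96 and 33.6 CPM in NT_MEIS1ex. Its groups stood apart by little, and its rise of 0.20 ± 0.06 (adjusted p = 0.0275) lost its call with no filter on low counts (0.0591), without MEIS1_KO replicate 2 (0.108), 3 (0.0911) or 4 (0.0537), and without NT_MEIS1ex replicate 3 (0.0803).

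The other 4 receptors did not pass the test in MEIS1_KO. LILRB2 had 2.95, 2.22, 2.15 and 2.93 CPM in MEIS1_KO and 1.57, 1.76, 2.05 and 1.96 CPM in NT_MEIS1ex, a difference of 0.48 (95% interval 0.15 to 0.81, edgeR, adjusted p = 0.0681). LILRA6 had 0.918, 0.786, 1.04 and 1.38 CPM in MEIS1_KO and 0.642, 0.842, 0.484 and 0.46605 CPM in NT_MEIS1ex, a difference of 0.75 (95% interval 0.21 to 1.29, edgeR, adjusted p = 0.0767). LILRA5 had 1.70, 1.93, 1.78 and 2.62 CPM in MEIS1_KO and 1.28, 1.13, 1.90 and 1.18 CPM in NT_MEIS1ex, a difference of 0.54 (95% interval 0.12 to 0.96, adjusted p = 0.0996). In both, 1 NT_MEIS1ex library lay within the MEIS1_KO range. LILRA6 was called without NT_MEIS1ex replicate 2 (0.94, adjusted p = 0.0360) and LILRA5 without NT_MEIS1ex replicate 3 (0.73, adjusted p = 0.0412). LAIR1 had 244, 248, 248 and 247 CPM in MEIS1_KO and 256, 229, 253 and 260.5 CPM in NT_MEIS1ex, a difference of -0.02 (95% interval -0.12 to 0.08).

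The HOXA9_KO and MEIS1_KO changes were then compared over all 17 libraries, as the first minus the second. This difference was called higher for 6 of 9 receptors and lower for 0, where it was called higher for 24.5% and lower for 19.7% of 18836 tested genes (edgeR), and both DESeq2 and an unadjusted p under 0.05 gave 6 and 0. It was 2.24 ± 0.30 on the log2 scale for LILRA5 (adjusted p = 1.28e-07), 1.58 ± 0.27 for LILRB3 (1.1e-05), 1.45 ± 0.08 for LILRA2 (9.5e-17) and 1.45 ± 0.38 for LILRA6 (0.00225). LILRB4 (0.54, adjusted p = 8.65e-09) and LAIR1 (0.42, adjusted p = 2.94e-06) lost their calls with library totals, at 0.04 (0.685) and -0.09 (0.297). LAIR1 also lost its call with nuclear protein-coding counts (0.093, edgeR, adjusted p = 0.193) and with totals less mitochondrial rRNA (0.091, adjusted p = 0.204). For LILRB1 the difference was 0.04 (95% interval -0.19 to 0.28) and it was -0.28 (adjusted p = 0.0342) with nuclear protein-coding counts. LILRA1 differed by 0.17 (95% interval -0.05 to 0.40) and LILRB2 by -0.08 (95% interval -0.61 to 0.44). The experiment and the gene knocked out cannot be told apart in this contrast.

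The SAFB_KO change minus the MEIS1_KO change was called for 2 receptors, where 12.4% of tested genes were called higher and 8.49% lower (edgeR). It was 0.22 ± 0.07 for LAIR1 (adjusted p = 0.0165) and -0.39 ± 0.12 for LILRB1 (adjusted p = 0.0134). The LAIR1 call was lost without SAFB_KO replicate 3 (adjusted p = 0.0541) and the LILRB1 call without NT replicate 2 (adjusted p = 0.0572). With nuclear protein-coding counts, library totals or totals less mitochondrial rRNA the LAIR1 call was lost (0.04 to 0.06) and LILRB4 was called lower (-0.23, -0.23 and -0.22, adjusted p = 0.0042, 0.0223 and 0.00724). LILRA1 was called lower with the first (-0.33, adjusted p = 0.0272) and the last (-0.32, adjusted p = 0.0359). LILRB3 differed by -0.02 (95% interval -0.59 to 0.55). In this contrast too, the experiment and the gene knocked out cannot be told apart.

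**Figure D4:**
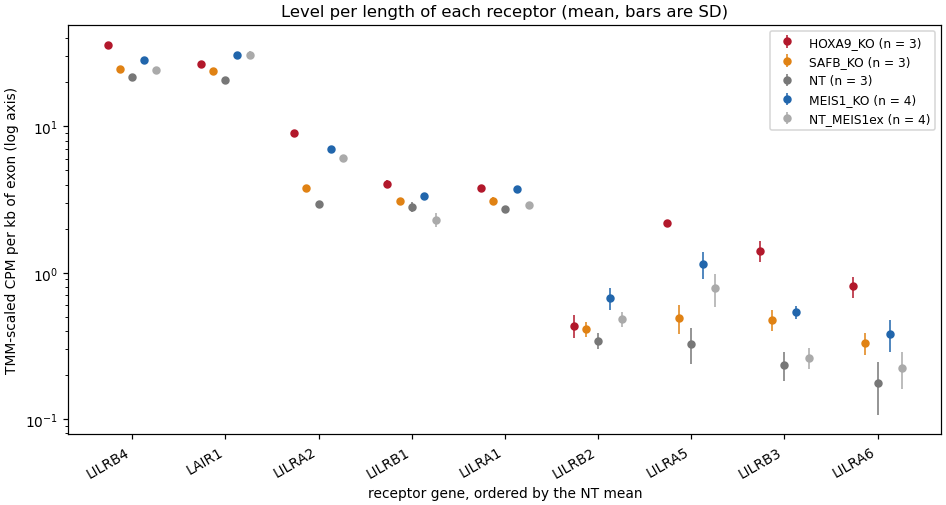
Level per length of each receptor (TMM-scaled CPM per kb of exon, log axis) in the 5 groups, mean with SD (n = 3 or 4), ordered by the NT mean. LILRB4 and LAIR1 lie between 20.8 and 36.2 in all groups, and LILRB2, LILRA5, LILRB3 and LILRA6, which lie between 0.177 and 0.343 in NT, spread out in HOXA9_KO.

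Levels of different receptors were compared per kb of exon (RPKM on the TMM scale). LILRB4 was at 36.2 ± 0.694 RPKM in HOXA9_KO, 24.5 ± 0.706 in SAFB_KO and 21.8 ± 0.406 in NT, and LAIR1 at 26.7 ± 0.683 RPKM in HOXA9_KO, 23.8 ± 0.940 in SAFB_KO and 20.8 ± 0.483 in NT (SD, n = 3 each). LILRB4 and LAIR1 overlapped in SAFB_KO and were apart in HOXA9_KO and NT. In the second experiment their order was the other way, with LAIR1 at 30.6 RPKM and LILRB4 at 28.6 RPKM in MEIS1_KO, and 30.9 and 24.3 RPKM in NT_MEIS1ex. LILRA2 came next in every group, at 8.99 RPKM in HOXA9_KO, 3.78 in SAFB_KO and 2.93 in NT. In NT it overlapped LILRB1 (2.82 RPKM), which overlapped LILRA1 (2.71 RPKM), and in HOXA9_KO it stood clear of LILRB1 (4.06 RPKM). The lowest 4 in NT were LILRB2, LILRA5, LILRB3 and LILRA6, each overlapping its neighbour. In HOXA9_KO they no longer overlapped, with LILRA5 at 2.20, LILRB3 at 1.41, LILRA6 at 0.806 and LILRB2, now lowest, at 0.435 RPKM. How LILRB4 and LAIR1 compare depends on the length used. Per kb of the longest transcript LAIR1 stood at 39.2 and LILRB4 at 38.8 RPKM in SAFB_KO. In NT they were nearly equal by that length, LAIR1 at 34.3 and LILRB4 at 34.4 RPKM.

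Activating receptors, mainly LILRA2, took a larger part of the receptors' reads in HOXA9_KO. They made up 12.6% ± 0.0200 of the summed CPM of the 9 receptors in HOXA9_KO, 8.29% ± 0.179 in SAFB_KO and 7.58% ± 0.24 in NT (SD, n = 3 each). Every HOXA9_KO and SAFB_KO library lay above every NT library. Most of the difference in HOXA9_KO was LILRA2, at 8.92% in HOXA9_KO and 4.49% in NT, while LILRA1 took a smaller share (2.53% in HOXA9_KO and 2.78% in NT). LILRA5 took 0.72% in HOXA9_KO and 0.165% in NT, and LILRA6 0.406% in HOXA9_KO and 0.138% in NT. In MEIS1_KO the share was 10.7% ± 0.220 and in NT_MEIS1ex 9.73% ± 0.502 (SD, n = 4 each), with overlap. A share within a library does not change with its scaling, and these shares were not tested.

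**Figure D5:**
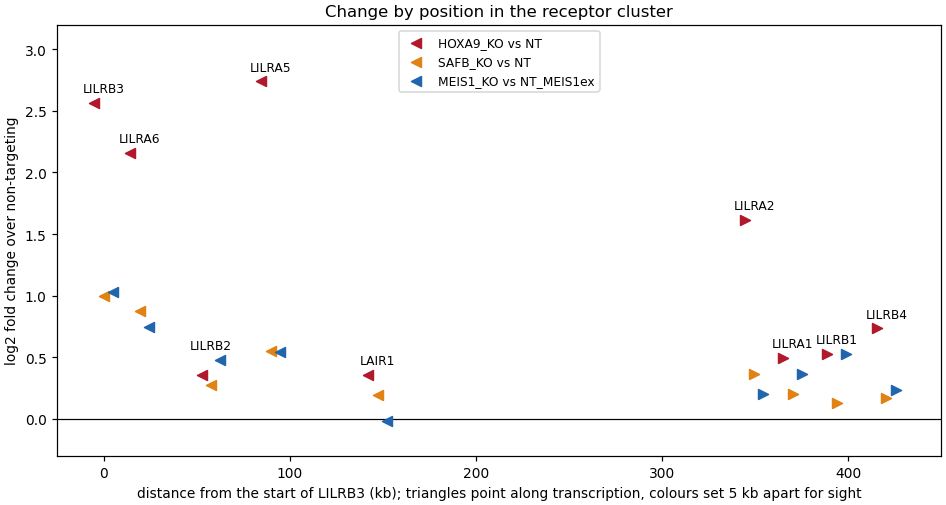
Log2 fold change of each receptor over its non-targeting libraries, against the distance of its start from that of LILRB3 (kb); triangles point along transcription, and colours are set apart by 5 kb. In HOXA9_KO, LILRB2 (0.35) lies between LILRA6 (2.16) and LILRA5 (2.74).

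By GENCODE 29 on GRCh38 the receptors form 2 runs, between LILRB3 (chr19:54216278-54223506, minus strand) and LILRB4 (chr19:54643889-54670359, plus strand). LILRB3, LILRA6, LILRB2, LILRA5 and LAIR1 lie on the minus strand, with starts 0, 19.3, 57.7, 89.6 and 147 kb from that of LILRB3, and LILRA2, LILRA1, LILRB1 and LILRB4 on the plus strand, 349 to 420.4 kb from it. Neighbours could differ widely in HOXA9_KO: LILRB2 (0.35) lies between LILRA6 (2.16) and LILRA5 (2.74), and LILRA2 (1.62) beside LILRA1 (0.49). LILRB3 and LILRA6, at the one end, both had large changes, and LILRA1, LILRB1 and LILRB4, at the other, small ones. Of 25 other protein-coding genes in the segment and 200 kb on either side, 17 were tested in the first experiment. In HOXA9_KO 9 of them were higher and 2 lower (median 0.54), where 27.6% of all tested genes were called higher and 29.9% lower. In SAFB_KO 6 were higher and 1 lower (median 0.20), where the shares of all tested genes were 20.2% and 15.3%. TSEN34, a tRNA splicing gene, rose by 0.92 in HOXA9_KO, MBOAT7, a lysophospholipid acyltransferase gene, by 0.85, NDUFA3, of respiratory complex I, by 0.76 and RPS9, a ribosomal protein gene, by 0.54. With library totals 8 neighbours were higher and 7 lower in HOXA9_KO, where 1659 of 18876 tested genes were called higher and 11710 lower. In MEIS1_KO 0 of 15 tested neighbours passed edgeR's test, 0 were higher and 1 lower at an unadjusted p under 0.05, and DESeq2 called 0. With 4.97% of all tested genes called higher in MEIS1_KO and 3.84% lower, 0 of 15 is near those shares.

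Relatives of the receptors did not move as one. LILRP1, a pseudogene of the cluster, had 7.25 ± 0.234 CPM in HOXA9_KO, 3.02 ± 0.393 CPM in SAFB_KO and 1.04 ± 0.0906 CPM in NT (SD, n = 3 each), and rose by 2.78 in HOXA9_KO and by 1.51 in SAFB_KO on the log2 scale. In the second experiment it had 2.23 ± 0.336 CPM in MEIS1_KO and 0.999 ± 0.0916 CPM in NT_MEIS1ex (SD, n = 4 each), a rise of 1.15. LILRP2, another pseudogene, rose by 2.53 in HOXA9_KO. LAIR2, a soluble relative of LAIR1, fell by 0.98 in HOXA9_KO (edgeR, adjusted p = 0.0165). LILRA4, of plasmacytoid dendritic cells, was at -0.39 (adjusted p = 0.351), LILRB5 did not pass the filter and LILRA3 was not analysed here. The 5 relatives analysed, LILRP1 among them, summed to 8.90 CPM in HOXA9_KO and 2.69 CPM in NT. The changes of LILRP2, LAIR2 and LILRA4 thus rest on low levels.

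FCER1G, the adaptor of activating LILRs, averaged 60.0 ± 2.61 CPM in HOXA9_KO, 27.4 ± 0.645 CPM in SAFB_KO and 12.1 ± 1.31 CPM in NT (SD, n = 3 each). It averaged 21.2 ± 1.58 CPM in MEIS1_KO and 12.9 ± 0.727 CPM in NT_MEIS1ex (SD, n = 4 each). Its rise was 2.30 in HOXA9_KO, 1.17 in SAFB_KO and 0.71 in MEIS1_KO on the log2 scale. Of 11 adaptors and kinases, 7 were higher and 0 lower in HOXA9_KO by edgeR and by DESeq2, and 7 and 0 at an unadjusted p under 0.05. Over all tested genes edgeR called 27.6% higher and 29.9% lower. FGR, a Src-family kinase, rose by 3.09, TYROBP, another adaptor, by 1.25 and SYK, the kinase these adaptors recruit, by 0.92. In SAFB_KO 8 were higher and 2 lower, FYN (-0.37) and LCP2 (-0.25), where the shares of all tested genes were 20.2% and 15.3%. In MEIS1_KO 3 were higher and 0 lower, with 5 and 1 at an unadjusted p under 0.05 and 4 and 0 by DESeq2. There edgeR called 4.97% of all tested genes higher and 3.84% lower. The HOXA9_KO counts depended on the scaling, with 6 higher and 4 lower with nuclear protein-coding counts and 5 and 5 with library totals. Of 18876 tested genes 2861 were higher and 9293 lower with the first scaling, and 1659 and 11710 with the second.

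Phosphatases and docking proteins of inhibitory receptors changed by less. Of 7, 6 were higher and 1 lower in HOXA9_KO (median 0.31) and in SAFB_KO (median 0.19). Over all tested genes 27.6% were called higher and 29.9% lower in HOXA9_KO, and 20.2% and 15.3% in SAFB_KO. But with library totals 2 of the 7 were higher and 4 lower in HOXA9_KO (median -0.13). By that scaling 1659 of 18876 tested genes were higher and 11710 lower, and the median of all genes was -0.50. PTPN6, which encodes SHP-1, stood at 0.31 in HOXA9_KO, DOK2, a docking protein, at 1.01 and INPP5D, which encodes the lipid phosphatase SHIP1, at -0.29. In MEIS1_KO 0 of 7 passed edgeR's test, 0 were higher and 1 lower at an unadjusted p under 0.05, and DESeq2 called 1 lower. There edgeR called 4.97% of all tested genes higher and 3.84% lower, so 0 of 7 is near those shares.

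Of 20 ligand genes, 13 were tested in the first experiment. In HOXA9_KO 9 were higher and 3 lower, where 27.6% of all tested genes were called higher and 29.9% lower. With library totals 6 were higher and 4 lower, where 1659 of 18876 tested genes were higher and 11710 lower. HLA-B rose by 0.78 on the log2 scale and FN1, which encodes fibronectin, fell by 1.28. APOE, which encodes a ligand of LILRB4, had 4.19 ± 0.709 CPM in HOXA9_KO, 0.0824 ± 0.0400 CPM in SAFB_KO and 0.158 ± 0.0425 CPM in NT (SD, n = 3 each), a fitted change of 4.66 in HOXA9_KO. In SAFB_KO 5 ligand genes were higher and 2 lower, where the shares of all tested genes were 20.2% and 15.3%. With library totals 1 ligand gene was higher and 4 lower in SAFB_KO. That is near the shares of all genes, with 1392 of 18876 higher and 5000 lower. In MEIS1_KO 2 of 14 were higher, HLA-B (0.20) and B2M (0.19), the light chain of HLA class I, and 0 lower, with 8 and 0 at an unadjusted p under 0.05 and 3 and 0 by DESeq2. There edgeR called 4.97% of all tested genes higher and 3.84% lower.

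Of 8 other inhibitory receptors of myeloid cells that were tested, 6 were higher and 1 lower in HOXA9_KO and 5 and 1 in SAFB_KO. Over all tested genes 27.6% were called higher and 29.9% lower in HOXA9_KO, and 20.2% and 15.3% in SAFB_KO. In MEIS1_KO 6 of 7 were higher and 0 lower, with 6 and 1 both at an unadjusted p under 0.05 and by DESeq2. There edgeR called 4.97% of all tested genes higher and 3.84% lower. PILRA rose by 2.803 in HOXA9_KO, 1.28 in SAFB_KO and 0.74 in MEIS1_KO, and CLEC12A, a lectin receptor found on AML cells, by 2.28, 1.296 and 0.60. PECAM1, an adhesion molecule, rose by 1.62, 0.94 and 0.45. CD300A fell by 0.79 in HOXA9_KO and by 0.81 in SAFB_KO. The HOXA9_KO counts of these receptors were the same with library totals, where 1659 of 18876 tested genes were called higher and 11710 lower.

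Markers of monocyte and granulocyte maturation moved with the receptors. Over all tested genes 27.6% were called higher and 29.9% lower in HOXA9_KO, 20.2% and 15.3% in SAFB_KO, and 4.97% and 3.84% in MEIS1_KO. All 10 markers, among them S100A9, CYBB and ITGAM, were called higher in HOXA9_KO and in SAFB_KO, and 8 of 9 tested in MEIS1_KO (with library totals 9, 9 and 8). Their summed level was 1844 to 1861 CPM in HOXA9_KO, 1049 to 1064 CPM in SAFB_KO and 497 to 508 CPM in NT, and 706 to 757 CPM in MEIS1_KO and 464 to 541 CPM in NT_MEIS1ex. None of the 10 was at 0 in any group, and their part in the receptor results was not tested. The 7 markers of the myeloid line, such as SPI1 and CD33, were detected in all groups but did not move as one. By edgeR 6 were higher and 1 lower in HOXA9_KO, 5 and 2 in SAFB_KO, and 4 and 0 in MEIS1_KO. The lower one in HOXA9_KO was FLT3, at 321 CPM beside 674 CPM in NT. Markers of T, B and NK cells (11 genes) summed to 113 to 121 CPM in HOXA9_KO, 103 to 109 CPM in SAFB_KO and 109 to 113 CPM in NT, with 1, 0 and 2 of them at 0, and to 172 to 181 CPM in MEIS1_KO and 166 to 180.2 CPM in NT_MEIS1ex, with 0 and 2 at 0. Markers of plasmacytoid dendritic cells (5 genes) summed to 22.9 ± 1.47 CPM in HOXA9_KO, 31.9 ± 0.857 CPM in SAFB_KO and 72.3 ± 1.55 CPM in NT. Most of this difference was IRF7, which interferon is known to induce, at 13.3 CPM in HOXA9_KO, 17.8 CPM in SAFB_KO and 55.6 CPM in NT. IRF7 and TCF4 were called lower in both knockouts and CLEC4C higher (0.382 CPM in HOXA9_KO, 0.671 CPM in SAFB_KO and 0.14 CPM in NT), LILRA4 was not called and IL3RA is listed at 0. Markers of erythroid cells and platelets (7 genes) summed to 0.517 CPM in HOXA9_KO, 0.648 CPM in SAFB_KO and 1.32 CPM in NT. In the second experiment the plasmacytoid sum, there with IL3RA, was 94.4 CPM in MEIS1_KO and 93.3 CPM in NT_MEIS1ex, and the erythroid and platelet sum 2.98 CPM in MEIS1_KO and 3.07 CPM in NT_MEIS1ex.

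The genes whose profile was most like the receptors' median over the 17 libraries were ANXA2, S100A4, CARD6, ZNF641 and BBS2, among 11182 candidates. Likeness was the root-mean-square distance of log2 CPM after subtracting the non-targeting mean of each experiment, and it ran from 0.0782 for ANXA2 to 0.101 for BBS2. The receptors themselves lay at 0.0987 for LILRB4, 0.126 for LILRA1 and 0.1602 for LILRB1, but at 0.787 for LILRA6, 0.899 for LILRA5 and 0.920 for LILRB3. These libraries share controls, so the distances are descriptions.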

How the data were processed

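RNA of MOLM13 cells was sequenced in 17 libraries after ribosomal RNA depletion with a directional kit (paired reads of 150 bases, per the labels' protocols). The deposited files hold raw HTSeq read counts per gene, not normalized. Per the submitters' processing notes the tools were STAR 2.7.10a, HTSeq 1.99.2, Trim Galore and bedtools, with hg38, and the sources used here give neither annotation release nor strand setting. The 8 files of the MEIS1 experiment also hold deposited whole-number counts, but nearly none on mitochondrial ribosomal RNA. Rows that name no gene were left out.

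Genes were named by GENCODE 29, which held 57937 of 58278 identifiers. Counts were tested with edgeR 4.0.16 in R 4.3.3 (quasi-likelihood, robust, TMM, filterByExpr with a minimum count of 10 and total of 15, Benjamini-Hochberg over all tested genes, calls at an adjusted p under 0.05). One fit held the 9 libraries of the first experiment, one the 8 of the second, and one all 17 for differences between effects. The scripts were tested on simulated counts. Library pairs within a group differed beyond counting noise (chi-square per degree of freedom 3.76 to 57.4). Alternatives were DESeq2 1.42.0, other scalings, no filter, a replicate block, LILRA6 and LILRB3 summed, and each library left out. The scalings by library totals, with and without mitochondrial rRNA, were added after seeing the data. Promoters were aligned with Biopython 1.88. All receptors are named, with up to 4 genes of each list by smallest p and the 5 genes most like the receptors; other genes (FYN, LCP2, B2M, INPP5D, CD300A and any further ones) were chosen after their values were seen. The receptors and lists were chosen with earlier results of these data known.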

Additional observations from a re-analysis of the deposited data

Results flagged for a closer look

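LAIR1 in MEIS1_KO replicate 1 lay far from its group for its range, at 244 CPM, beside 247 to 248 CPM in the other 3 MEIS1_KO libraries. It was the 1 such library in 18 groups of 4 looked at, and chance gives about 1 in 20 groups.

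The change in HOXA9_KO differed from that in MEIS1_KO, by the test over all 17 libraries, for LILRA5 (2.24 on the log2 scale), LILRB3 (1.58), LILRA2 (1.45), LILRA6 (1.45), LILRB4 (0.54) and LAIR1 (0.42). With library totals as the only scaling, LILRB4 lost its call and LAIR1 changed sign. LAIR1 also lost its call with nuclear protein-coding counts and with totals less mitochondrial rRNA. The change in SAFB_KO differed from that in MEIS1_KO for LILRB1 (-0.39) and LAIR1 (0.22), and the LAIR1 call was lost under every scaling by totals or protein-coding counts. Both contrasts span the experiments, so the experiment and the gene knocked out cannot be told apart in them.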

How the results depend on the processing

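Of 1080 log2 fold changes under alternatives, 1024 kept their direction and side of the threshold, counting 43 sign changes between values called in neither fit. With library totals, receptors called higher numbered 5 in HOXA9_KO against NT and 5 in HOXA9_KO against SAFB_KO, with 1 lower in the second. Of 18876 tested genes 1659 and 1249 were called higher, and 8924 lower in the second. In SAFB_KO against NT 3 receptors were higher with nuclear protein-coding counts, 3 with totals and 3 with totals less mitochondrial rRNA. Of 18876 tested genes these scalings called 1712, 1392 and 1803 higher. In the same order of scalings, receptors called lower numbered 1, 2 and 1 for the HOXA9_KO minus MEIS1_KO change, and 3, 2 and 3 for the SAFB_KO minus MEIS1_KO change, where 0, 0 and 0 were higher. Of 18836 tested genes, these scalings called 7777, 10406 and 7800 lower for the first change and 3496, 3145 and 3223 lower for the second. Higher calls over all tested genes for the second change numbered 612, 487 and 667.

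Signs that turned were those of LAIR1 (-0.082) in HOXA9_KO against NT, LILRA1 (-0.0040) and LAIR1 (-0.13) in HOXA9_KO against SAFB_KO, and LILRA1 (-0.33) and LAIR1 (-0.089) for HOXA9_KO minus MEIS1_KO, all with totals, and LILRB1 for the last (-0.28 with protein-coding counts, -0.46 with totals, -0.28 with totals less mitochondrial rRNA). These scalings moved the median of all genes; no other cause was tested.

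Leaving out 1 library at a time gave 8 to 8 higher in HOXA9_KO, 4 to 6 in SAFB_KO, 8 to 8 in HOXA9_KO against SAFB_KO, 4 to 6 in MEIS1_KO and 6 to 6 for HOXA9_KO minus MEIS1_KO. For SAFB_KO minus MEIS1_KO it gave 0 to 1 higher and 0 to 1 lower. Replicate numbers did not pair libraries throughout, where a correlation of 0.1 was set to count as paired. Same-number correlations were -0.05 to 0.07 in the first experiment and -0.30 to 0.12 in the second. There the pairs of replicates 2 and 4 passed 0.1 (0.12 each), but NT_MEIS1ex replicate 2 and MEIS1_KO replicate 1 reached 0.29. With a replicate block 5 receptors were higher in SAFB_KO, without LILRA1 (0.20, edgeR, adjusted p = 0.0532), and other receptor counts did not change. Few reads limit LILRA6, LILRA5, LILRB3 and LILRB2.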

Other observations

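Some receptors stood apart between both sets of non-targeting libraries. LILRA5 had 1.13 to 1.90 CPM in NT_MEIS1ex and 0.412 to 0.730 CPM in NT, and LAIR1 averaged 249.6 ± 14.1 CPM in NT_MEIS1ex (SD, n = 4) and 168 ± 3.90 CPM in NT (SD, n = 3). LILRA2 was at 32.6 ± 0.9996 CPM in NT_MEIS1ex (SD, n = 4) and 15.7 ± 0.935 CPM in NT (SD, n = 3). Each value was scaled within its own experiment, and no test was made between experiments. SPI1, which encodes the ETS factor PU.1, rose by 1.27 on the log2 scale in HOXA9_KO and CEBPA, a C/EBP factor, by 0.92, and by 0.51 and 0.35 in SAFB_KO. In MEIS1_KO they stood at 0.08 (edgeR, adjusted p = 0.575) and -0.14 (adjusted p = 0.443).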
